A study of Homo sapiens
Rattus norvegicus and Homo sapiens with 10 samples.

Results

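The potassium channel genes described here are the 83 rows, of 62754 in the deposited gene table, whose symbol is a potassium channel family prefix (KCNA to KCNV) followed by a number, with pseudogenes and antisense genes left out. They cover pore-forming subunits of voltage-gated, calcium- and sodium-activated, inward-rectifier and tandem-pore-domain channels, and the single-span KCNE partners. All 83 matched a protein-coding gene of GENCODE release 29 on GRCh38. The study sequenced total RNA from U251N, a long-established line of human glioblastoma cells, grafted into the brains of adult female athymic RNU/RNU rats, a strain that lacks T cells. The 3 recurrent tumours had grown back after LITT (laser interstitial thermal therapy), a treatment that heats the tumour through an inserted laser fibre, guided here by diffusion-weighted magnetic resonance imaging. The 3 primary tumours had not been ablated, and both groups shared the implantation of the same line. The 3 tumour-free control brains were 1 failed graft (control 1) and 2 procedural controls (controls 2 and 3), and 1 library of the line grown in vitro served as an outside reference. Every tumour derives from 1 cell line, and no label states that every library is a separate animal, so p-values measure the spread between these libraries, which may be technical.

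Potassium channels let potassium leave or enter the cell down its electrochemical gradient and so hold the resting membrane potential, end action potentials and set cell volume. Voltage-gated channels open on depolarisation, calcium-activated channels couple the membrane to intracellular calcium, and inward rectifiers and tandem-pore-domain channels carry background current near rest. Neurons use many of them for firing, astrocytes use inward rectifiers to take up extracellular potassium, and glioma cells are known to use calcium-activated channels in volume change and migration.

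The libraries differed in total counts on human genes and in graft content. Total estimated counts were 20321590 to 25299612 in recurrent tumours, 25316552 to 39714714 in primary tumours, 1358753 to 4158124 in controls and 65058642 in the culture. Structural small RNAs, chosen by gene name, made up 92.6%, 89.7% and 31.3% of controls 1, 2 and 3. They were ribosomal, spliceosomal, small nucleolar, signal recognition particle and related genes, 5061 in all. Levels that include controls or culture are therefore CPM without structural RNAs, that is, scaled to the total of the other counts, of which controls 1 and 2 held only 100752 and 175820. Recurrent and primary tumours are compared in CPM of the TMM-scaled total (TMM CPM). Graft reads, sorted from host reads by the authors, made up 29.44%, 42.67% and 33.05% of recurrent tumours 1 to 3, 42.52%, 45.38% and 64.4% of primary tumours 1 to 3, and 0.33%, 0.55% and 4.9% of controls 1 to 3. The line's identity genes (VIM, NES, CD44, FN1, TNC and CAV1) summed to 9425 to 11142 CPM without structural RNAs in the tumours, 1300, 6052 and 11900 in controls 1 to 3, and 13172 in the culture. Control 3 thus had the line's genes at the tumours' level despite its tumour-free label. In bulk tissue, fewer cells of a type and less RNA per cell cannot be told apart.

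Channel transcripts were a small part of the RNA. The 83 genes summed to 145.6, 146.8 and 139.7 CPM without structural RNAs in the recurrent tumours, 155.3, 140.9 and 152.5 in the primary tumours and 318 in the culture. The sums in controls 1, 2 and 3 were 5300, 1666 and 253. Of the 83 genes, 24 had 3 or more counts in all 6 tumours, 22 had none in any tumour and 14 had none in any library.

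The genes were set in classes by level. A gene was control-led if it had at least 10 counts over the controls, at least 3 counts in 2 of them and a median control level over 2 times the median tumour. Other genes were carried by the line if culture and median tumour both reached 0.5 CPM without structural RNAs. The line carried 15 of the 83 genes, which is 18.1% of them, against 22.4% of all 62754 rows. Control-led genes numbered 8, which is 9.64% of the channel genes, against 1.5% of all rows. Of these, KCNC1, KCNC4, KCNH2 and KCNT2 also reached 0.5 CPM in both culture and median tumour, but are not among the 15. Their culture levels were 0.88, 2.58, 2.37 and 4.93 CPM. A further 4 genes reached the threshold in the median tumour but not the culture (KCNF1, KCNK13, KCNK3 and KCNK9). The culture but not the median tumour reached it for 2 (KCNE1 and KCNK2), and 54 genes were low. Some of these had control counts. KCNE1 had 17.1 and 1.40 CPM in controls 2 and 3, KCNK3 had 59.6 CPM in control 1, and KCNK13 had 1.40 CPM in control 3. KCNF1 and KCNK9 had 0.35 CPM each in control 3, and KCNK2 had 0 counts in the controls. The classes rest on these levels and carry no test. KCNJ8, at 0.56 CPM in the median tumour and 1.58 CPM in the culture, was the last gene inside the carried class. Just outside it were KCNK3, at 0.51 CPM in the median tumour and 0.42 CPM in the culture, and KCNK2, at 0.39 CPM in the median tumour and 2.03 CPM in the culture. KCNT2, with a control level 2.32 times the tumour level, was the last control-led gene, and KCNG1, at 1.49 times, fell outside. Without control 3, whose graft-like content is given above, 5 of the 8 control-led genes remained (KCNA1, KCNC1, KCNC4, KCNH2 and KCNK12), and without control 1 there were 4 (KCNC1, KCNC4, KCNH2 and KCNK12). Without control 2, KCNH1 was control-led in place of KCNA1 and so left the carried genes.

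**Figure D1:**
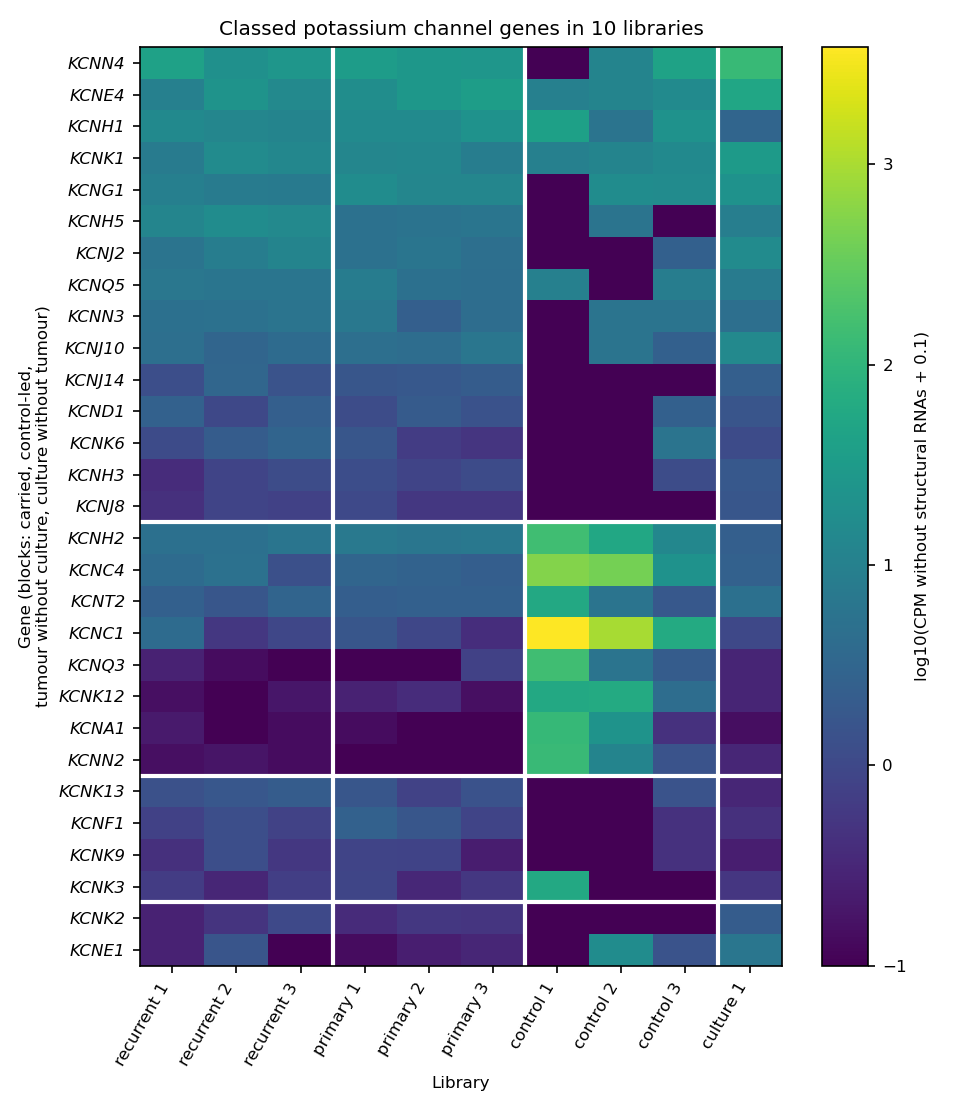
Level of the 29 classed potassium channel genes (rows, in 4 blocks) in the 10 libraries (columns, recurrent, primary, control, culture), as log10 of CPM without structural RNAs plus 0.1. The darkest squares are 0 counts: many carried genes are there in controls 1 and 2, where a single count already gives a lighter square, and in control 3 KCNH5, KCNJ14 and KCNJ8 are. The control-led block is brightest in controls 1 and 2, up to 3841 CPM for KCNC1.

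A calcium-activated channel had the highest tumour level of the 83 genes. Per kilobase of the longest transcript, KCNN4 averaged 11.6 ± 3.08 TMM CPM per kilobase over the 6 tumours (SD). KCNN4 (chr19:43766533-43781261) encodes the intermediate-conductance calcium-activated channel, which opens on calcium binding to calmodulin whatever the voltage. The next were KCNE4 at 5.76 ± 2.59, KCNK1 at 4.98 ± 1.23 and KCNG1 at 4.57 ± 1.42 TMM CPM per kilobase, whose values lay within each other's SD. KCNE4 is a single-span partner that inhibits several voltage-gated channels, KCNK1 forms a weak tandem-pore-domain background channel, and KCNG1 is an electrically silent subunit that forms channels only with other voltage-gated subunits. KCNH1, a voltage-gated channel of the ether-a-go-go (EAG) family long studied in tumour cells, ranked 5 with 1.69 ± 0.41 TMM CPM per kilobase. These 5 genes held 68.4% to 76.5% of the summed per-kilobase level in recurrent tumours, 76.6% to 79.4% in primary tumours and 85.9% in the culture. Their share was 1.85%, 10.7% and 67.5% in controls 1, 2 and 3. In the culture KCNH1 ranked 16 of the 83 genes per kilobase and held only 0.33% of the summed level.

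The rest of the carried genes had levels of 0.20 to 1.16 TMM CPM per kilobase. KCNJ2, a strong inward rectifier that sets the resting potential, averaged 1.16 ± 0.46 TMM CPM per kilobase. KCNQ5, a subunit of the M-type current, had 0.81 ± 0.19, KCNH5, another EAG channel, had 0.80 ± 0.41, and KCNJ10, the inward rectifier of astrocytes, had 0.72 ± 0.17 TMM CPM per kilobase. The lower carried genes were KCNJ14 and KCNJ8 (inward rectifiers), KCND1 (an A-type voltage-gated channel), KCNN3 (a small-conductance calcium-activated channel), KCNK6 (a tandem-pore-domain channel) and KCNH3 (of the EAG-like family).

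A known partner of the KCNE subunits was near 0. KCNQ1, a cardiac and epithelial channel that KCNE1 and KCNE4 modify, had 0 counts in every recurrent tumour and 6, 2 and 0 in the primary tumours. RNA levels alone do not show which subunits form channels.

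Recurrent tumours were then compared with primary tumours to ask which channel genes differ after LITT. Of the 83 genes, 24 had enough counts to be tested and none passed edgeR's quasi-likelihood test after Benjamini-Hochberg adjustment over 15928 genes (adjusted p 0.212 to 0.999), where 0.00628% of all tested genes passed. At an unadjusted p under 0.05 there were 5 of 24 (20.8%), 2 higher and 3 lower in recurrent tumours, against 8.38% of all tested genes. The groups did not overlap for 4 of 24 (16.7%), against 15.4% of all tested genes. The median log2 fold change was 0.06 over the 24 genes and -0.01 over all tested genes, with 13 positive and 11 negative. DESeq2 called 1 gene, KCNH5, where it called 0.67% of all genes with an adjusted p, and limma-voom called none.

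KCNH5 (chr14:62699454-63102037, minus strand) had the smallest p of the set. It encodes an EAG-family voltage-gated channel of neurons that opens at more negative voltages than KCNH1. Its level was 11.0, 15.1 and 12.8 TMM CPM in recurrent tumours 1 to 3, against 4.47, 5.07 and 5.45 TMM CPM in primary tumours 1 to 3. Each recurrent tumour was above each primary tumour. The means were 13.0 ± 2.05 TMM CPM in recurrent and 5.00 ± 0.50 TMM CPM in primary tumours (SD, n = 3 each). The log2 fold change was 1.38 (SE 0.22), with an unadjusted p of 8.0e-05 and an adjusted p of 0.212 in edgeR's quasi-likelihood test. DESeq2 gave an adjusted p of 0.00015 and edgeR without a filter on low counts 0.000258, while limma-voom gave 0.252. The log2 fold change stayed at 1.24 to 1.48 when any 1 tumour was left out, with edgeR adjusted p of 0.060 to 0.636, and was 1.63 once graft percentage entered the model. Recurrent tumour 1 shares a library name prefix with the primary tumours and recurrent tumours 2 and 3 do not; the labels do not say what it marks, and with it as a covariate, a fit in which recurrent tumour 1 alone stands for its group, the log2 fold change was 1.14 (edgeR adjusted p = 0.660). The culture had 8.94 CPM without structural RNAs, inside the range of 5.02 to 16.8 across the tumours.

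KCNG1 (chr20:51003656-51023129) and the EAG channel KCNH1 were lower in each recurrent tumour than in any primary tumour, and neither passed the adjusted test. KCNG1 had 8.52, 7.32 and 6.74 TMM CPM in recurrent tumours, against 14.97, 11.5 and 11.5 TMM CPM in primary tumours. Its log2 fold change was -0.75 (SE 0.21; edgeR adjusted p = 0.479). KCNH1 (chr1:210676823-211134180) had 13.4, 11.2 and 10.3 TMM CPM in recurrent tumours, against 13.9, 14.2 and 19.8 TMM CPM in primary tumours, a log2 fold change of -0.46 (SE 0.20; edgeR adjusted p = 0.590). The 2 EAG genes therefore had fold changes of opposite sign in the same libraries, and the difference between them was not tested. Once graft percentage entered the model, the log2 fold change of KCNH1 was -0.19.

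KCNE4 (chr2:223051814-223198399) had 8.62, 19.9 and 12.9 TMM CPM in recurrent tumours, against 15.6, 24.4 and 32.3 TMM CPM in primary tumours. The groups overlapped, and within each group the order of the tumours by KCNE4 was their order by graft percentage. The log2 fold change was -0.80 (SE 0.32; edgeR adjusted p = 0.576), -0.05 once graft percentage entered the model, and -0.81 without a filter on low counts, where the adjusted p was 0.0056. The part of graft content in this difference was not tested. KCNJ2 (chr17:70168673-70180048) had 5.09, 7.77 and 10.6 TMM CPM in recurrent tumours, against 4.50, 5.41 and 4.18 TMM CPM in primary tumours. Recurrent tumour 1 lay within the primary range, and the log2 fold change was 0.74 (SE 0.31; edgeR adjusted p = 0.588).

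**Figure D2:**
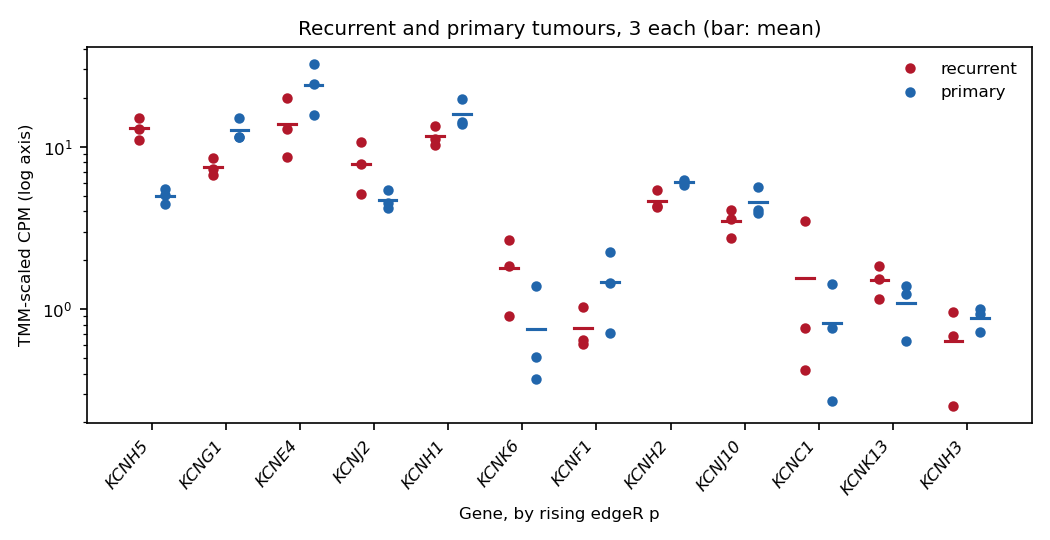
TMM CPM (log axis) of the 12 tested genes with the smallest p in each recurrent and primary tumour (points, 3 each; bars are means). KCNH5 points separate with the recurrent tumours at 11.0 to 15.1 and the primary tumours at 4.47 to 5.45, while most other genes overlap.

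For KCNN4, the gene with the highest level, no difference was detected. It had 37.7, 17.8 and 22.7 TMM CPM in recurrent tumours, against 29.9, 24.8 and 23.3 TMM CPM in primary tumours. Recurrent tumour 1 lay above all primary tumours and recurrent tumours 2 and 3 lay below them. The log2 fold change was -0.00 (SE 0.25), -0.37 without recurrent tumour 1 (edgeR adjusted p = 0.536) and -0.46 once graft percentage entered the model (edgeR adjusted p = 0.719). KCNH2, the cardiac and neuronal ERG channel, had non-overlapping groups, with 4.24, 4.31 and 5.41 TMM CPM in recurrent tumours and 6.27, 5.79 and 6.07 TMM CPM in primary tumours. Its log2 fold change was -0.38 (SE 0.26; edgeR adjusted p = 0.686).

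Among the other tested genes the groups overlapped. KCNK6 had 0.91, 1.83 and 2.65 TMM CPM in recurrent tumours, against 1.39, 0.51 and 0.37 TMM CPM in primary tumours, a log2 fold change of 1.26 (SE 0.66). KCNF1 had 0.60, 1.03 and 0.64 TMM CPM in recurrent tumours, against 2.23, 1.44 and 0.71 TMM CPM in primary tumours, a log2 fold change of -0.93 (SE 0.60). Neither gene separated the groups, and both are near the low end of the tested levels. The astrocytic inward rectifier KCNJ10 had 4.08, 2.74 and 3.57 TMM CPM in recurrent tumours, against 4.08, 3.89 and 5.65 TMM CPM in primary tumours. KCNK1 averaged 11.1 ± 3.58 TMM CPM in recurrent and 10.4 ± 2.12 TMM CPM in primary tumours (SD, n = 3 each), and KCNQ5 averaged 5.51 ± 0.34 and 5.33 ± 1.92 TMM CPM in recurrent and primary tumours. These means lay closer together than the replicates of a group. The log2 fold changes of KCNK13 (0.48, SE 0.52), KCNH3 (-0.47, SE 0.64), KCNC4 (0.36, SE 0.50), KCND1 (0.38, SE 0.55), KCNN3 (0.21, SE 0.38), KCNT2 (-0.08, SE 0.41) and KCNJ14 (0.08, SE 0.51) were each smaller than their SE. Over the 19 genes with a mean of at least 1 TMM CPM, the coefficient of variation between the 6 tumours ran from 16.5% for KCNH2 to 100.5% for KCNC1, with a median of 31.3%.

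**Figure D3:**
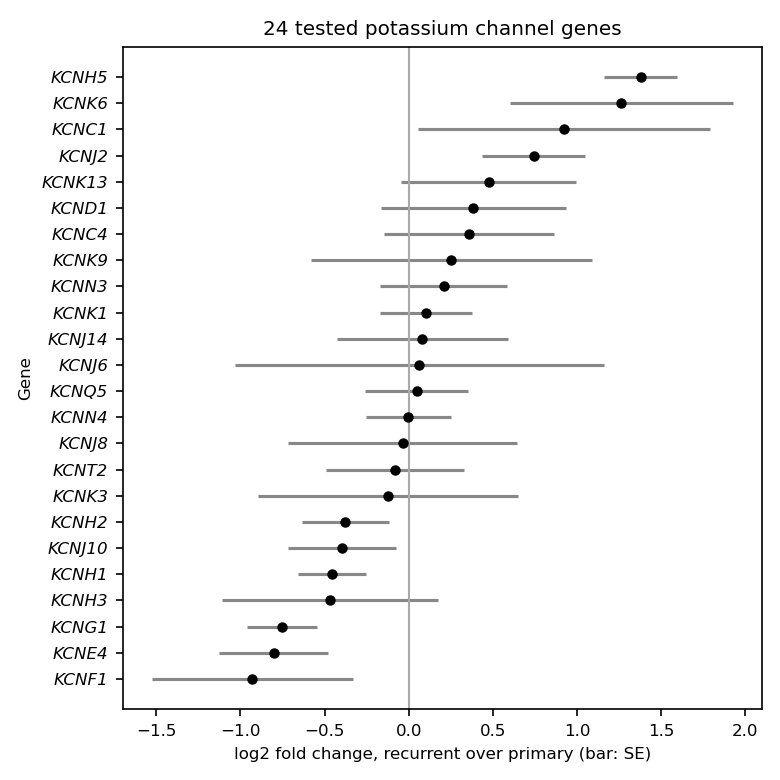
Log2 fold change, recurrent over primary, of the 24 tested genes with its SE (edgeR). Fold changes run from -0.93 for KCNF1 to 1.38 for KCNH5, and intervals are wide for low genes such as KCNJ6.

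The control-led genes included several channels known from firing neurons. KCNC1 (chr11:17734774-17856804), a Shaw-type voltage-gated channel that lets fast-spiking neurons repolarise quickly, had 69, 11 and 19 counts in recurrent tumours and 37, 18 and 11 counts in primary tumours. In controls 1 to 3, whose total counts on human genes were far lower, it had 387, 173 and 182 counts. The labels do not say which sorted reads entered the counts. Whether the control counts came from human or rat RNA was not tested. Scaled to these totals without structural RNAs, KCNC1 had 0.465 to 3.89 CPM in the recurrent tumours and 0.295 to 1.60 CPM in the primary tumours. It had 3841, 984 and 63.7 CPM in controls 1, 2 and 3, values that rest on the small control totals. All 3 controls exceeded all 6 tumours. The culture had 0.878 CPM of KCNC1, inside the tumour range. KCNC4 (chr1:110211343-110283100), the Shaw-type relative of KCNC1, had 1.20 to 5.03 CPM in tumours and 546, 421 and 21.7 CPM in controls. Its culture level was 2.58 CPM, also inside the tumour range. The Shaw-type genes made up 0.359% to 1.69% of the summed per-kilobase level in tumours and 75.8%, 70.5% and 15.2% in controls 1, 2 and 3.

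KCNK12 (a silent tandem-pore-domain subunit), KCNA1 (an axonal delayed rectifier), KCNN2 (a small-conductance calcium-activated channel) and KCNQ3 (an M-current subunit) had few counts. KCNK12 had 1, 0 and 2 counts in recurrent tumours, 4, 6 and 2 in primary tumours and 6, 11 and 12 in controls. KCNA1 had 0 to 2 counts in the tumours and 12, 4 and 1 in the controls. KCNN2 had 0 to 2 counts in the tumours and 13, 2 and 4 in the controls. KCNQ3 had 3, 1 and 0 counts in recurrent tumours, 0, 0 and 25 in primary tumours and 15, 1 and 6 in controls, so that primary tumour 3 stands apart. KCNH2 and the sodium-activated channel KCNT2 were the other control-led genes, and both also had counts in every tumour, with 84 to 247 and 37 to 93.

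**Figure D4:**
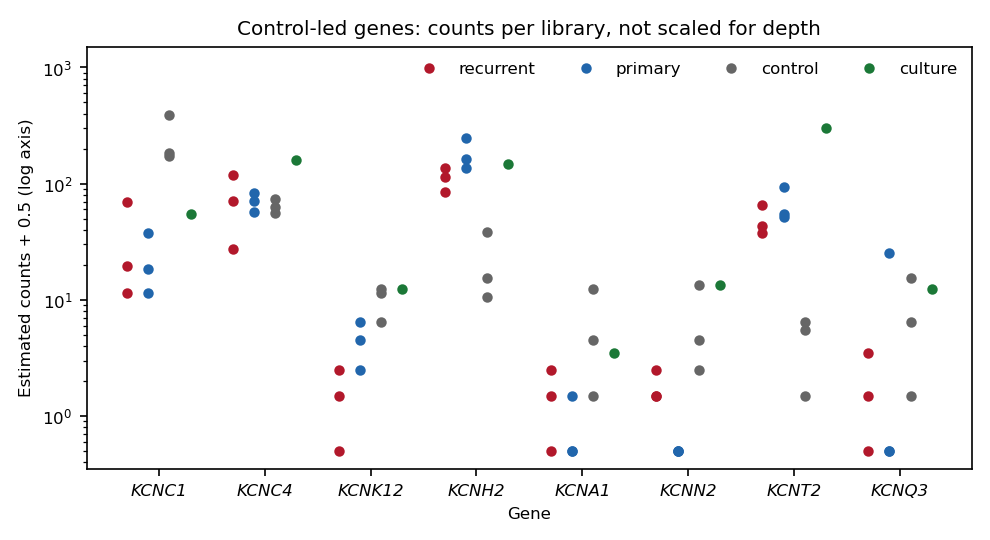
Estimated counts plus 0.5 (log axis) of the 8 control-led genes in recurrent, primary, control and culture libraries (points, not scaled for depth). KCNC1 had 11 to 69 counts in tumours and 173 to 387 in controls, although the control libraries have lower total counts on human genes.

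Of 28 genes tested between all tumours and controls, 1 was higher in tumours (3.57% of those tested, against 0.782% of 15847 genes) and 6 were lower (21.4%, against 3.12%). The higher gene was KCNH5, with a log2 fold change of 4.63 (SE 1.0; edgeR adjusted p = 0.0218). It had 219, 397 and 320 counts in recurrent tumours, 116, 120 and 222 in primary tumours and 0, 1 and 0 in controls. The lower genes were KCNC1 (log2 fold change -11.00), KCNC4 (-7.10), KCNK12 (-9.03), KCNN2 (-11.44), KCNQ3 (-9.04) and KCNH2 (-3.26), with edgeR adjusted p of 0.000525 to 0.0281. All 6 are control-led genes, a class whose rule used the same levels. Their calls, p-values and share are therefore no separate support for that class. KCNK12, KCNN2 and KCNQ3 also passed the filter on low counts only through the controls. The median log2 fold change was -0.35 over the 28 genes and 0.20 over all tested genes. The size of a fold change of a gene with so few tumour counts depends on the prior count. Without control 3, 0 genes were higher and 9 were lower, and no share over all genes is given for that fit. KCNC1, KCNC4 and KCNK12 were called with any 1 library left out, but their fold changes moved. The log2 fold change of KCNC1 was -8.78 without control 1, -11.60 without control 3 and -11.69 without recurrent tumour 1. That of KCNC4 was -5.96 without control 1 and -7.81 without control 3, and that of KCNK12 was -8.44 without control 1 and -9.79 without control 3. KCNQ3 was not called without control 1 (log2 fold change -4.55, edgeR adjusted p = 0.234). It had a log2 fold change of -11.47 without primary tumour 3, and -9.74, -9.73 and -9.85 without recurrent tumour 1, control 2 and control 3. KCNN2 had too few counts to test without control 1, and had -12.16 and -12.32 without control 2 and control 3. The log2 fold change of KCNH2 was -2.10 without control 1 and -4.54 without control 3, and that of KCNH5 was 10.38 without control 2, which held its single control count. KCNH2 was not called without control 1, control 2, recurrent 1, recurrent 2 or primary 2 (edgeR adjusted p = 0.0710, 0.0997, 0.0557, 0.0550 and 0.0851). KCNH5 was not called without control 3, where the log2 fold change was 0.93 (edgeR adjusted p = 0.696), nor without control 1, recurrent 2, recurrent 3, primary 2 or primary 3 (edgeR adjusted p of 0.0523 to 0.0537).

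The neuronal nuclear marker RBFOX3, chosen beside KCNC1 after its values were seen, moved with the control-led genes. It had 109, 35 and 24 counts in recurrent tumours, 34, 10 and 5 in primary tumours, 307, 196 and 212 in controls and 0 in the culture. Recurrent tumour 1, with the lowest graft percentage of the tumours, was the tumour highest in both RBFOX3 and KCNC1. The 8 neuronal markers as a list summed to 854 to 1525 CPM without structural RNAs in the tumours, 5052, 2133 and 897 in controls 1 to 3 and 566 in the culture, with 4 to 6 of them at 3 or more counts. Most of that sum in the tumours was NEFL, which the culture also had at 31044 counts, and the glutamatergic marker SLC17A7 was at 0 in all 3 controls. The 6 oligodendrocyte markers summed to 133 to 231 CPM without structural RNAs in the tumours, 3841, 1291 and 236 in controls 1 to 3. Of the microglial markers, C1QA, C1QB, CX3CR1, P2RY12 and AIF1 were at 0 in every library. The part of neuronal and oligodendrocyte RNA in the channel differences was not tested. KCNC1 gave a log2 fold change of 0.92 (SE 0.87) between recurrent and primary tumours, and -0.46 without recurrent tumour 1.

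Most of the line's channel genes also had counts in control 3. Of the 15 carried genes, 6 had a control 3 level within the range of the 6 tumours, 4 above it and 5 below it. KCNN4 had 19.7 to 42.1 CPM without structural RNAs in the tumours, against 43.0 CPM (123 counts) in control 3. Of the 15 genes, KCNH5 and KCNK6 had an exact Poisson 95% interval in control 3 outside the tumour range. KCNH5 had 5.02 to 16.8 CPM in the tumours, against 0 counts in control 3, which allows up to 1.05 CPM by the 3-count floor. KCNK6 had 0.402 to 2.94 CPM in the tumours, against 5.60 CPM (3.20 to 9.09) in control 3. These intervals cover counting error only. In controls 1 and 2, 1 carried gene each reached 3 counts.

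The tumours were also set beside the 1 culture library, which has no replicate spread and gives no test. Of 25 genes at 0.5 CPM or more in culture or median tumour, 4 were at least 2-fold higher in the median tumour with the culture outside the tumour range (16.0%, against 5.62% of 16545 genes), and 9 were lower (36.0%, against 11.7%). The median log2 difference, tumour minus culture, was -0.42 over the 25 genes and -0.06 over all genes considered. The higher genes were KCNK13, KCNH1, KCNF1 and KCNH2. KCNH1 ran from 11.4 to 21.6 CPM without structural RNAs in the tumours, against 3.02 in the culture, a ratio of median tumour to culture of 5.03. Controls 1 to 3 had 39.7, 5.69 and 22.0 CPM of KCNH1, on 4, 1 and 63 counts. KCNK13, a tandem-pore-domain channel of microglia and other cells, ran from 0.69 to 2.05 CPM in the tumours, against 0.211 in the culture.

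The lower genes held KCNN4 and several inward rectifiers. KCNN4 had 19.7 to 42.1 CPM in the tumours, against 124 in the culture. KCNE4, KCNK1, KCNJ2, KCNJ8 and KCNJ10 had median tumour levels of 19.8, 12.8, 5.79, 0.56 and 4.40 CPM, against culture levels of 52.4, 31.9, 16.0, 1.58 and 14.0 CPM. KCNE1 differed most, with 0 to 1.52 CPM in the tumours and 6.26 in the culture, but a near-identical copy of the gene makes its count uncertain. KCNK2, a stretch-sensitive tandem-pore-domain channel, had a median of 0.39 CPM in the tumours and 2.03 in the culture, and KCNT2 had a median of 2.45 in the tumours and 4.93 in the culture. KCNH5 had a tumour median of 9.15 CPM and a culture level of 8.94, inside the tumour range.

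**Figure D5:**
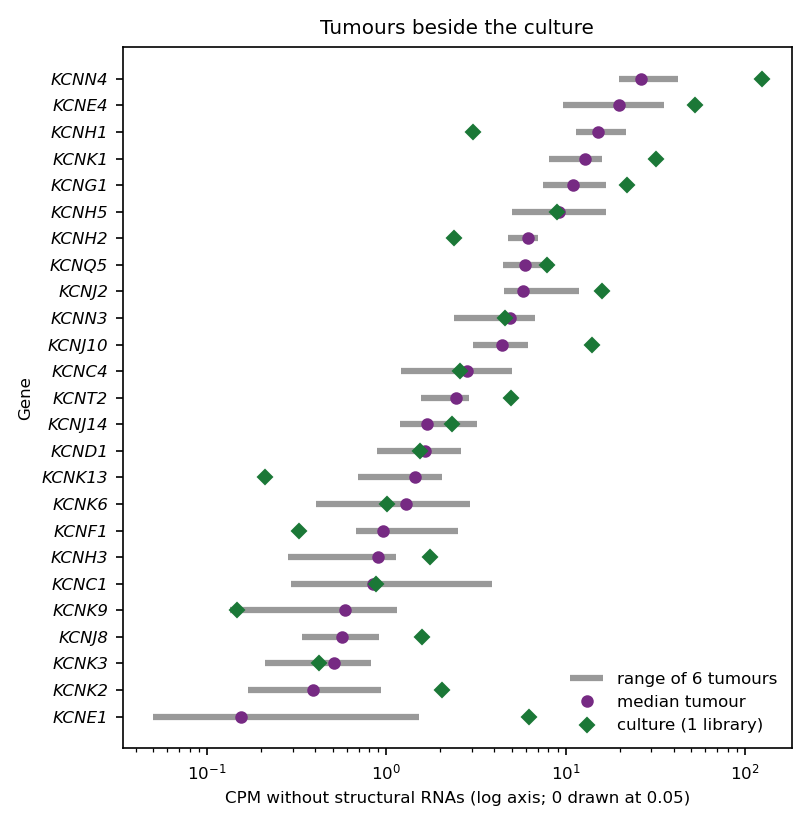
CPM without structural RNAs (log axis, 0 drawn at 0.05) of the 25 considered genes in the 6 tumours (line, range; circle, median) and the culture (diamond, 1 library). The culture diamond lies right of the tumour range for KCNN4, at 124 against 19.7 to 42.1, and left of it for KCNH1, at 3.02 against 11.4 to 21.6.

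The 54 low genes included 7 of the 8 Shaker-type KCNA genes. Of the 54, 14 had no count in any library and 32 had counts in some tumour, but none had 3 or more counts in all 6. The highest single tumour count was 40, for KCNH8 in recurrent tumour 2, where the other tumours had 1 to 9. KCNE5, a single-span partner, had 6, 2 and 22 counts in recurrent tumours, 1, 1 and 18 in primary tumours and 0 in the culture, so that most of its counts came from recurrent tumour 3 and primary tumour 3. KCNG4, a silent subunit, had 16 counts in recurrent tumour 3 and 0 in the other tumours. At 0 counts in a tumour, up to 0.0804 to 0.169 CPM without structural RNAs is allowed.

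Genes that work with potassium channels were a second list of 54, of which 35 were tested between recurrent and primary tumours. None passed the adjusted test in edgeR with its filter on low counts or in limma-voom. In edgeR, 5 of the 35 had an unadjusted p under 0.05 (2 higher and 3 lower), against 8.38% of all tested genes. The median log2 fold change was 0.20 over the 35 and -0.01 over all tested genes, with 22 positive and 13 negative. DLG4, a synaptic scaffold that anchors channels, had 14.9, 13.8 and 12.6 TMM CPM in recurrent tumours, against 24.9, 22.5 and 21.7 in primary tumours, a log2 fold change of -0.75 (SE 0.15; edgeR adjusted p = 0.267). DLG4 was the 1 gene of the list called by DESeq2 (adjusted p = 0.0352), which called 0.67% of all genes, and by edgeR without the filter on low counts (adjusted p = 0.0174). DLG4 was also control-led by the rule. It had 1340, 552 and 51.4 CPM without structural RNAs in controls 1 to 3, against 14.0 to 28.0 in the tumours and 19.5 in the culture. FXYD6, a sodium pump modulator, had a log2 fold change of -2.49 (SE 0.98, edgeR adjusted p = 0.572) at low levels. It had 0.10, 0 and 0.24 TMM CPM in recurrent tumours, against 0.58, 0.84 and 0.57 in primary tumours. SLC12A2, a cation-chloride cotransporter of volume control, had a log2 fold change of 0.53 (SE 0.21, edgeR adjusted p = 0.572). The line carried 27 of the 54, against 22.4% of all rows. KCNMA1, the large-conductance calcium-activated channel pore gene outside the symbol rule, had 131 to 225 CPM without structural RNAs in the tumours, 397, 364 and 328 in controls and 74.5 in the culture, and was control-led by the rule. Its tumour mean was 12.5 TMM CPM per kilobase, beside 11.6 for KCNN4.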

How the data were processed

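Per the labels, total RNA was made into strand-specific, ribosomal-RNA-depleted libraries and read as pairs, so antisense reads are kept apart from sense reads. STAR, Salmon 1.10.3, DESeq2 and the GRCh38 build are named per the submitters' processing notes; the role of each and the annotation release were not given in the sources used here. The authors deposited Salmon estimated counts per gene, not scaled between libraries. Salmon divides shared reads by a model, so KCNE1 and the pair KCNJ12 and KCNJ18, which have near-identical copies, are uncertain. Every per-sample column was used (0 left out), and 0 rows lacked a gene name.

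Estimated counts were rounded and tested with edgeR 4.0.16 (R 4.3.3; TMM, filterByExpr, two-sided quasi-likelihood F test without covariates, Benjamini-Hochberg over all tested genes, threshold 0.05), checked on simulated data. DESeq2 1.42.0 and limma 3.58.1 (voom) were alternatives, with other scalings, no filter on low counts, covariates and each library left out. The tumours against controls contrast kept structural small RNAs out of the totals. The SE is the log2 fold change divided by the square root of F. Groups came from the treatment label, and replicates are numbered in record order, so no number pairs samples. A count of 0 allows up to 3 counts; floors and intervals cover counting error only. Lengths and 1-based coordinates are those of GENCODE 29.

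Named genes were the 12 tested genes with the smallest p between recurrent and primary tumours, the 20 with the highest tumour mean, up to 12 control-led genes, the 10 with the largest culture difference, those beside each class threshold, and the 5 smallest p of the second list, of which some are not reported here. Genes named beyond these were chosen after their values were seen. The members, gene lists and tests were chosen with earlier results of these data known. A host-contamination correction named in the labels was not copied.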

Additional observations from a re-analysis of the deposited data

How the results depend on the processing

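No paired analysis was possible because the labels give no replicate numbers shared between groups. Between recurrent and primary tumours, the count called higher was 1 under DESeq2 and without a filter on low counts, the count called lower was 1 without that filter, and both were 0 to 0 with any 1 library left out. KCNC1 changed sign, to -1.19 once graft percentage entered the model and -0.46 without recurrent tumour 1, and ran from -0.46 to 1.60 with 1 library left out. Between tumours and controls, 12 genes were lower under DESeq2 and without the filter; leaving out 1 library gave 0 to 1 higher and 3 to 9 lower. There KCNK3 and KCNT2 changed sign without control 1, and ran from -6.48 to 6.18 and from -4.16 to 0.015 with 1 library left out. At a threshold of 1 CPM, 1 gene was in tumours without culture and 4 in culture without tumours. For the classes, leaving out 1 control gave 14 to 16 carried, 4 to 8 control-led, 4 to 4 in tumours without culture and 2 to 2 in culture without tumours. With a 4-fold difference from culture, 2 genes were higher and 3 lower in tumours, and with 1 tumour left out 4 to 5 and 8 to 11. Scaled to the whole library total, 6 genes were control-led, without KCNH2 and KCNT2. The causes of these changes were not tested. No share over all genes is given for these settings, except for DESeq2 between recurrent and primary tumours. Counts under the other settings therefore have no background to be set against. The low total counts of controls 1 and 2 limit the control levels.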

Other observations

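Among the 40 rows whose symbol starts with KCN but falls outside the rule, the antisense RNA KCNQ1OT1 (chr11:2608328-2699994, minus strand) had 1086, 855 and 671 counts in recurrent tumours, 1142, 1269 and 1120 in primary tumours, 0, 5 and 167 in controls and 1877 in the culture. Its host locus gene KCNQ1 had 0 to 6 counts in any tumour. KCNMB4, an accessory subunit of the large-conductance calcium-activated channel in brain, had 21.5, 16.3 and 17.2 CPM without structural RNAs in recurrent tumours and 20.4, 18.8 and 21.0 in primary tumours, against 22.5 in the culture. The groups overlapped. Control 3 had 54 counts (18.9 CPM), inside the tumour range. Controls 1 and 2 had 0 counts, which allow up to 29.8 and 17.1 CPM by the 3-count floor.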
